A study of Mus musculus with 2 samples.

Results

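Transcripts of 39 genes of the contractile and calcium-handling apparatus of skeletal muscle were examined in mouse tumours, out of 26602 genes listed by symbol. The members are named genes of the sarcomere, the Z-disc, the calcium store and muscle energy metabolism, and all 39 were found in the deposited table. They were chosen on the TPM values of both libraries, with an earlier reading of these values in view, so the differences between the libraries describe the members and are not tested. The data were 2 RNA sequencing libraries of CT26 tumours, grown from a colon carcinoma line under the skin of wild-type BALB/c mice to about 200 mm3. The FuOXP NP group had received nanoparticles loaded with FuOXP, a conjugate of 5-fluorouracil and oxaliplatin, at 10 mg/kg per intravenous dose, and the Empty NP group the same particles without drug. Both had 3 doses at intervals of 5 days, and tumours were collected 24 hours after the last one. The design names 3 mice per group, but each group is 1 library here, and pooling of mice is not stated. No value has a replicate to check it, and treatment, tumour, mouse and dissection cannot be told apart. In bulk tissue, fewer muscle cells and less muscle RNA per cell cannot be told apart either.

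A skeletal muscle fibre is packed with sarcomeres, in which myosin thick filaments slide along actin thin filaments. Thick filaments are tied together at the M-line and thin filaments at the Z-disc, and titin and nebulin run along them as giant rulers. A nerve impulse opens calcium channels of the membrane and of the sarcoplasmic reticulum, calcium binds troponin, and a calcium pump ends the contraction. Fast fibres and slow fibres use different genes of the myosin, troponin and calcium pump families. A colon carcinoma is not known to build sarcomeres, and the skin of the mouse carries a thin sheet of skeletal muscle.

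Values were TPM, which are scaled by gene length and by library, and differences are log2((FuOXP NP + 1)/(Empty NP + 1)). Whole read numbers could be recovered from the steps between low TPM values and the annotated exon lengths, and 36 of the 39 members lay on whole reads. That count takes in the 11 members at 0 in both libraries, where a whole number is given. Of the 28 above 0 in Empty NP, 25 lay on whole reads. A read on 1000 exon bases was worth 1.91 TPM in FuOXP NP and 3.56 TPM in Empty NP. The recovered reads of named genes with an annotation summed to 935308 in FuOXP NP and 448402 in Empty NP, far fewer than the reads per sample that the labels give. Intervals below are exact 95% Clopper-Pearson intervals of these reads, which cover counting error only. Folds given as at least set the Empty NP value against a floor of 3 reads in FuOXP NP. They take the Empty NP reads as exact, so they are not limits of such intervals and leave out the counting error of Empty NP. The typical gene, here the median of named genes with 50 or more reads, was itself 3.19-fold lower in FuOXP NP, and the median difference of the 9489 genes whose mean reached 1 TPM was -1.44. Unnamed rows took up 71.3% of the TPM of FuOXP NP and 62.9% of that of Empty NP. Of 8 epithelial and intestinal markers looked up to check the tissue label, Krt8, Krt19, Epcam, Cdh1 and Cdx2 were listed at 0 in both libraries. Krt20 was at 3.96 TPM in FuOXP NP and 0 in Empty NP, and Vil1 and Krt18 were at 0 in FuOXP NP and 4.01 and 2.54 TPM in Empty NP. Of all named genes, 62.3% were listed at 0 in FuOXP NP and 56.5% in Empty NP, so these zeros cannot decide on the label.

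The muscle genes were mostly listed at 0 in FuOXP NP and mostly present, at 0.415 to 55.1 TPM, in Empty NP. Of the 39 members, 9 were above 0 in FuOXP NP and 28 in Empty NP. The 30 members listed at 0 in FuOXP NP compare with 62.3% of all named genes, and the 11 listed at 0 in Empty NP with 56.5%. Of the 28 members above 0 in Empty NP, 19 were listed at 0 in FuOXP NP, against 22.1% of the 11565 named genes above 0 in Empty NP and 23.2% of those within the same range of Empty NP values. No member was above 0 in FuOXP NP and listed at 0 in Empty NP. Summed over the members, TPM was 24.9 in FuOXP NP and 244 in Empty NP.

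**Figure D1:**
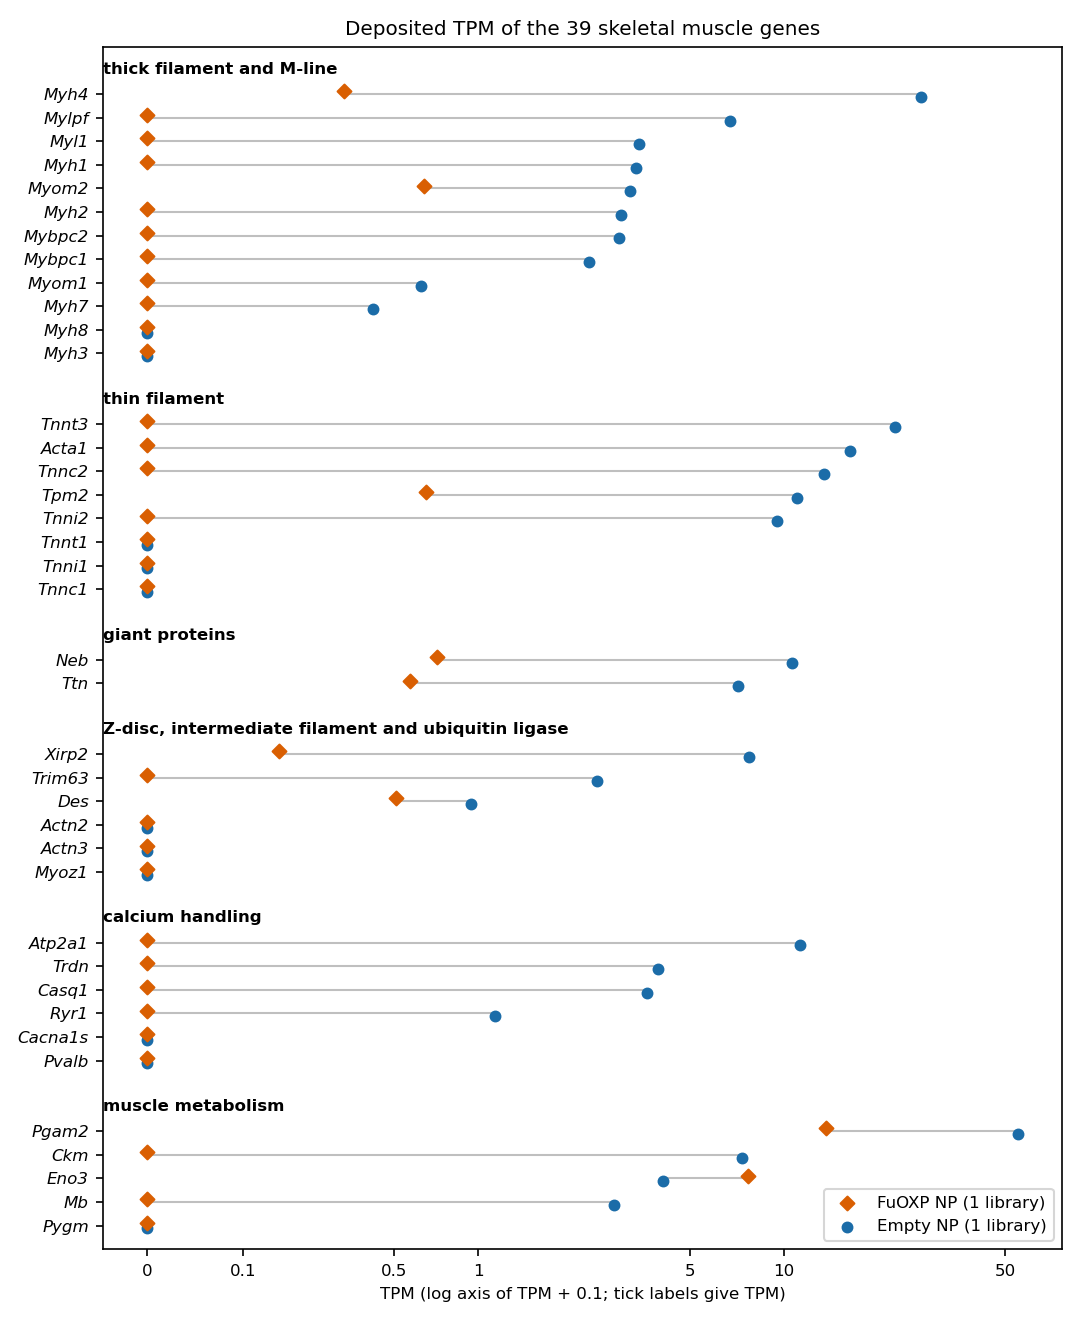
Deposited TPM of each of the 39 muscle genes by class, in FuOXP NP (orange diamonds) and Empty NP (blue circles), 1 library each, on a log axis of TPM + 0.1. Eno3 is the member whose FuOXP NP value lies to the right of its Empty NP value, and 19 members pair a value above 0 in Empty NP with 0 in FuOXP NP.

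The stretch upstream of the gene is where muscle regulators are known to bind. It is shown here for 1 member of each class among the 32 with an entry in the RefSeq promoter set (GRCm38.p6). That member is the one with the highest Empty NP value. Each run holds the 250 bases before the start in the promoter set, 5′ to 3′ on the strand of the gene. For Myh4, Acta1, Atp2a1 and Pgam2 that start is not the GENCODE start given elsewhere. They lie at chr11:67237562-67237811 (Myh4, plus strand), chr8:123894776-123895025 (Acta1, minus strand), chr2:76982548-76982797 (Ttn, minus strand), chr2:67445752-67446001 (Xirp2, plus strand), chr7:126463074-126463323 (Atp2a1, minus strand) and chr11:5803797-5804046 (Pgam2, minus strand). Capitals mark matches, on either strand, to CANNTG (the E-box, bound by MyoD and related factors), TATAAA (the TATA box), CATTCC (MCAT, bound by TEAD factors) and the MEF2 and CArG motifs, which MEF2 factors and SRF bind.
Myh4: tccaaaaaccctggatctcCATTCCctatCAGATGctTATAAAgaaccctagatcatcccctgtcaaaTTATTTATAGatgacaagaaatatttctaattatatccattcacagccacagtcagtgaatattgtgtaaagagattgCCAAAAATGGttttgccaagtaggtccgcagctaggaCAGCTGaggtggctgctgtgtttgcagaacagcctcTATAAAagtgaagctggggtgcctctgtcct
Acta1: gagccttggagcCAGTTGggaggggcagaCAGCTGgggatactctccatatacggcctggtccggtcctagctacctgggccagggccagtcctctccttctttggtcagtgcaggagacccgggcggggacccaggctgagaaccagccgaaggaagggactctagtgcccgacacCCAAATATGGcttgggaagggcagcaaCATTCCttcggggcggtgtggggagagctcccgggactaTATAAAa
Ttn: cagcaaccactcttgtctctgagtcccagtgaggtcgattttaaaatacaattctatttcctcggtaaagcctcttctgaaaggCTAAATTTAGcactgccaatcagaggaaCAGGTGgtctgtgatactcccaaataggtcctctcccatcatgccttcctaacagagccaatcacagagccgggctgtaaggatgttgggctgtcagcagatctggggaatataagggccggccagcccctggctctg
Xirp2: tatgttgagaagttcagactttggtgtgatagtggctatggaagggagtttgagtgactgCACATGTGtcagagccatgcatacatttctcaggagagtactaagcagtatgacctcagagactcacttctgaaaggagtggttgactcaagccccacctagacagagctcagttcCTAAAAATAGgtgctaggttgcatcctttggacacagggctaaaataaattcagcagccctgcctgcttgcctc
Atp2a1: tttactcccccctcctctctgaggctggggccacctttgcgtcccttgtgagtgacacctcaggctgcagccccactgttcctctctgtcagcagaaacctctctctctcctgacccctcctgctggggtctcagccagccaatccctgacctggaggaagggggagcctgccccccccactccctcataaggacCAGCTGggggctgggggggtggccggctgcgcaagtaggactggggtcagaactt
Pgam2: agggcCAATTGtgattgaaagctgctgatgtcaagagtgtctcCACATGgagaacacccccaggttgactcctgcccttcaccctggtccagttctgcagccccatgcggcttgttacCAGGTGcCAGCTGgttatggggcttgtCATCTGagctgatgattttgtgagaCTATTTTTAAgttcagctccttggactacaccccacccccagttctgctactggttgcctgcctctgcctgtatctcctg
All 6 stretches held at least 1 E-box, Myh4, Ttn, Xirp2 and Pgam2 held a MEF2 match, and Myh4 and Acta1 held a CArG match. In Myh4 a TATAAA lies within the MEF2 match, and in Xirp2 the E-boxes overlap each other. Over the 32 member promoters, 28 (87.5%) held an E-box, against 66.0% of 27025 promoters of the same length. A MEF2 match was in 7 (21.9%), against 3.01%, and a CArG match in 3 (9.38%), against 1.40%. MCAT was in 10 and TATAAA in 8 of them, against 12.6% and 13.0% of all promoters. These are letters in a window and not binding sites. Binding was not measured, and a bearing of these letters on the difference between the libraries was not tested.

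Thick filament and M-line genes were led by Myh4, the heavy chain of the fastest fibres. Myh4 (ENSMUSG00000057003.12) is a plus-strand gene of chromosome 11 (67238029 to 67260446 of GRCm38, by GENCODE vM21). It was at 0.317 TPM in FuOXP NP and 27.2 TPM in Empty NP, on 1 and 46 reads. That is 85.9-fold lower in FuOXP NP (14.7 to 3465), with a log2 difference of -4.42. Of the 6 heavy chains among the members it had the highest TPM in both libraries.

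The other adult fast heavy chains, Myh1 and Myh2, were listed at 0 in FuOXP NP and at 3.36 and 2.99 TPM in Empty NP, on 6 reads each. Against a floor of 3 reads in FuOXP NP, and with the 6 reads of Empty NP taken as exact, both were at least 3.73-fold lower. These genes are close copies of each other: of the 75-base windows of their transcripts, the length of the reads, 15.8% in Myh1, 13.9% in Myh2 and 9.68% in Myh4 also occur in another gene. Reads on such windows could have been counted for either gene, so the order of Myh1 and Myh2 is uncertain. Myh7, the slow and cardiac heavy chain, was listed at 0 in FuOXP NP and at 0.415 TPM in Empty NP on 1 read. Its windows are shared with Myh6, the other cardiac chain, to 10.6%. The embryonic and neonatal chains Myh3 and Myh8, which mark developing or regenerating fibres, were listed at 0 in both libraries.

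The light chains Mylpf (regulatory) and Myl1 (essential) of fast fibres were listed at 0 in FuOXP NP and at 6.71 and 3.43 TPM in Empty NP, on 2 reads each. Of the windows of Myl1, 8.08% also occur in its pseudogene Mylf-ps. The myosin-binding protein genes Mybpc1 and Mybpc2, of the slow and fast isoforms, were also listed at 0 in FuOXP NP and at 2.36 and 2.96 TPM in Empty NP. Each of those rested on only 3 reads in Empty NP, so no lower bound is given for them. At the M-line, Myom2 was at 0.646 TPM in FuOXP NP and 3.22 TPM in Empty NP, on 3 and 8 reads, or 4.98-fold lower (1.19 to 29.1). That interval holds the 3.19-fold of the typical gene. Myom1 was listed at 0 in FuOXP NP and at 0.628 TPM in Empty NP, a value that does not fall on a whole read. Pooled over the class, 4 reads in FuOXP NP stood against 79 in Empty NP, or 36.9-fold lower (13.8 to 139).

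Thin filament genes had the largest fold of the 5 classes above 0 in both libraries. They summed to 0.656 TPM in FuOXP NP, all of it from Tpm2, and to 72.6 TPM in Empty NP, or 111-fold lower. Tnnt3 (plus strand of chromosome 7, 142498836 to 142516009), the fast troponin T that anchors troponin on tropomyosin, was listed at 0 in FuOXP NP and at 22.5 TPM in Empty NP on 10 reads, at least 6.22-fold lower. Acta1 (minus strand of chromosome 8, 123891769 to 123894751), the skeletal muscle actin, was listed at 0 in FuOXP NP and at 16.2 TPM in Empty NP on 7 reads, at least 4.36-fold lower. Tnni2, the fast inhibitory troponin, was listed at 0 in FuOXP NP and at 9.52 TPM in Empty NP on 4 reads, at least 2.49-fold lower. Tnnc2, the fast calcium-binding troponin, was listed at 0 in FuOXP NP and at 13.4 TPM in Empty NP, on only 3 reads.

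Tpm2, a tropomyosin that non-muscle cells also make, was at 0.656 TPM in FuOXP NP and 11.0 TPM in Empty NP, on 1 and 9 reads, or 16.8-fold lower (2.33 to 736). The slow-fibre troponins Tnnt1, Tnni1 and Tnnc1 were listed at 0 in both libraries. Among the 14 members assigned to fast fibres, 1 was above 0 in FuOXP NP and 11 in Empty NP, with summed TPM of 0.317 and 107. Of the 4 assigned to slow fibres, none was above 0 in FuOXP NP and 1, Myh7, in Empty NP. Mybpc1 was assigned to neither type, and with it as a slow gene 2 slow genes would be above 0 in Empty NP. The assignment follows textbook roles, and a read was worth up to 3.42 TPM in Empty NP for the slow genes, so they cannot be called absent.

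The giant proteins held most of the reads, because a long transcript gives more reads at the same level. Ttn, titin, a minus-strand gene of chromosome 2 (76703980 to 76982547), was at 0.572 TPM in FuOXP NP and 7.13 TPM in Empty NP, on 35 and 234 reads. It was 12.5-fold lower in FuOXP NP (8.72 to 18.4). Neb, nebulin, of the same strand and chromosome (52136647 to 52378474), was at 0.718 TPM in FuOXP NP and 10.6 TPM in Empty NP, on 10 and 79 reads, or 14.7-fold lower (7.61 to 31.9). Both intervals lie wholly above the 3.19-fold of the typical gene and overlap each other. The members were chosen on these values, so this describes Ttn and Neb and is not a test. Together they made up 61.9% of the member reads in Empty NP but 7.25% of the member TPM. They also held 45 of the 65 member reads of FuOXP NP.

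At the Z-disc, Xirp2 (plus strand of chromosome 2, 67446002 to 67526614), an actin-binding protein with Xin repeats, was at 0.159 TPM in FuOXP NP and 7.73 TPM in Empty NP, on 1 and 26 reads. That is 48.5-fold lower in FuOXP NP (7.97 to 1990). Des, the intermediate filament desmin, rested on 1 read in each library, at 0.508 TPM in FuOXP NP and 0.949 TPM in Empty NP, and no difference was detectable at that depth. Trim63, the ubiquitin ligase MuRF1 that rises in wasting muscle, was listed at 0 in FuOXP NP and at 2.51 TPM in Empty NP on 2 reads. The alpha-actinins Actn2 and Actn3 and the Z-disc protein gene Myoz1 were listed at 0 in both libraries.

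None of the 6 calcium-handling genes was above 0 in FuOXP NP, and 4 were in Empty NP. Their pooled reads were 0 in FuOXP NP and 30 in Empty NP, at least 18.7-fold lower against a floor of 3 reads over the class. Atp2a1, the fast calcium pump SERCA1, was listed at 0 in FuOXP NP and at 11.3 TPM in Empty NP on 11 reads, at least 6.84-fold lower. Trdn, triadin, which ties calsequestrin to the release channel, was listed at 0 in FuOXP NP and at 3.94 TPM in Empty NP. Its value comes to 10.4 reads and so does not fall on a whole read. Ryr1, the release channel itself, was listed at 0 in FuOXP NP and at 1.15 TPM in Empty NP on 7 reads, at least 4.37-fold lower. Casq1, the calcium-storing calsequestrin, was listed at 0 in FuOXP NP and at 3.65 TPM in Empty NP on 2 reads. The voltage sensor gene Cacna1s and the calcium buffer gene Pvalb were listed at 0 in both libraries.

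The muscle metabolism genes were the class whose pooled fold lay nearest to that of the typical gene. Pgam2 (minus strand of chromosome 11, 5801640 to 5803733), the muscle phosphoglycerate mutase, was the most abundant member in both libraries, at 13.6 TPM in FuOXP NP and 55.1 TPM in Empty NP. On 6 and 13 reads it was 4.04-fold lower in FuOXP NP (1.43 to 13.0), an interval that holds the typical gene. Eno3, the muscle enolase, was at 7.68 TPM in FuOXP NP and 4.10 TPM in Empty NP, on 7 and 2 reads. Its log2 difference of 0.77 was the only positive one among the members. As Empty NP over FuOXP NP the ratio was 0.533 with an interval of 0.0541 to 2.80, which holds equality, so a difference was not detectable at this depth.

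Ckm, the muscle creatine kinase, was listed at 0 in FuOXP NP and at 7.34 TPM in Empty NP on 6 reads, at least 3.73-fold lower. Mb, the oxygen store myoglobin, was listed at 0 in FuOXP NP and at 2.84 TPM in Empty NP, or 1.19 reads. Pygm, the muscle glycogen phosphorylase, was listed at 0 in both libraries. Pooled over the class, 13 reads in FuOXP NP stood against 22 in Empty NP, or 3.16-fold lower (1.52 to 6.83). Pgam2 and Eno3 held 21.3 of the 24.9 TPM that the members summed to in FuOXP NP.

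Pooled over all members, 65 reads in FuOXP NP stood against 506 in Empty NP, or 14.5-fold lower (11.2 to 19.1). Without Ttn and Neb the reads were 20 and 193, or 18.0-fold lower (11.3 to 30.2). Without Pgam2 and Eno3 as well they were 7 and 178, or 47.5-fold lower (22.6 to 120). By TPM, which weighs short genes more, the sum was 9.82-fold lower in FuOXP NP.

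By a 2-fold threshold, 23 of the 24 members whose mean reached 1 TPM were lower in FuOXP NP, where 69.7% of all 9489 such genes were. None was 2-fold higher, against 2.35% of all genes. The 24 are not all members, and 16 of them are listed at 0 in FuOXP NP and passed through Empty NP alone, so they had to be lower. Of the 8 that were above 0 in both libraries, 7 were at least 2-fold lower, against 66.7% of 8069 such genes. The median difference of the 24 was -2.34, beside -1.44 over all genes tested, or -0.90 relative to the median gene. Counted relative to the median gene, 11 were at least 2-fold lower and 1, Eno3, at least 2-fold higher.

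The members were set beside genes with as many reads in Empty NP. Of the 10 members with 6 to 11 reads in Empty NP, 8 were listed at 0 in FuOXP NP, against 9.85% of the 2204 named genes with as many reads. Of the 4 with 3 to 5 reads, all 4 were listed at 0, against 24.1% of 2378 genes. At 1 to 2 reads, 7 of 9 members were listed at 0, but so were 51.8% of 3247 genes. The 5 members with 12 or more reads were all above 0 in FuOXP NP. The members were chosen on the values of both libraries, so these shares describe them and are not a test against genes of the same depth. Of the 8 zeros at 6 to 11 reads, those of Myh1, Myh2, Ryr1, Atp2a1 and Ckm belong to genes whose exons overlap another gene. Zeros on 1 or 2 reads carry little information.

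**Figure D2:**
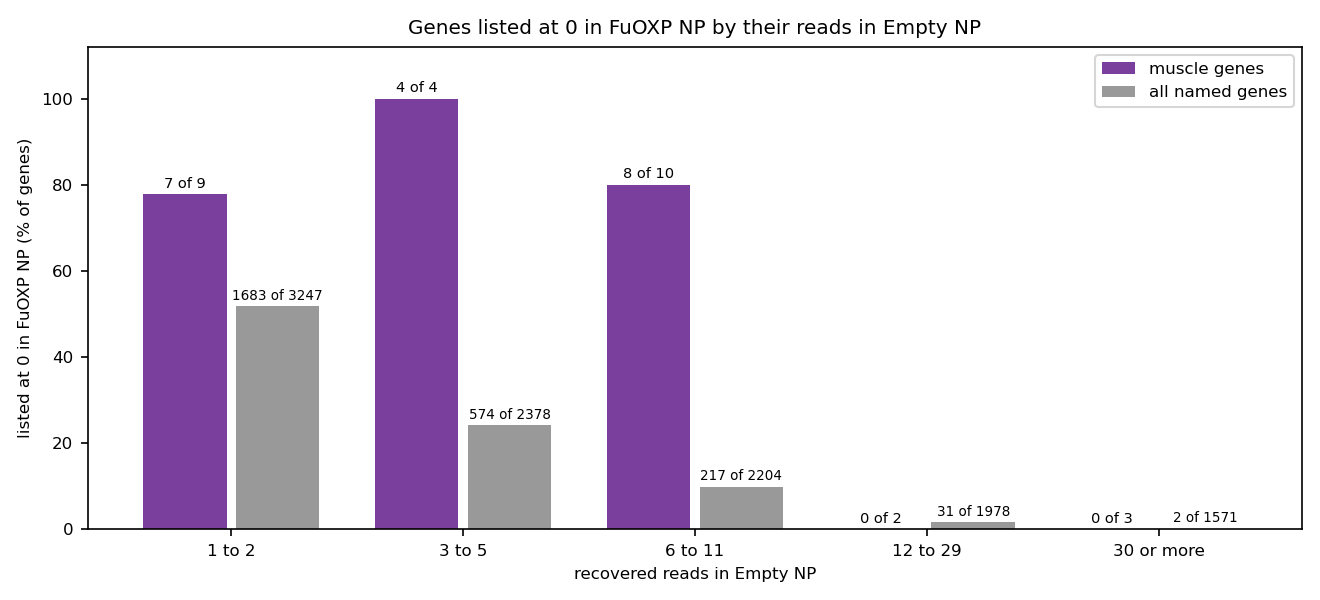
Share of genes listed at 0 in FuOXP NP, by the recovered reads of the gene in Empty NP, for the muscle genes (purple) and all named genes (grey), with the numbers of genes above the bars. At 6 to 11 reads the bar of the muscle genes stands for 8 of 10 and that of all named genes for 217 of 2204.

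The exons of 17 of the 39 members overlap those of 21 other annotated genes, in each case on the opposite strand. How the libraries mark strand, to which strand reads were counted and whether reads on overlapping exons were left out is not stated in the labels or processing notes. Reads of a muscle gene and of its antisense neighbour therefore cannot be told apart, and what a member's TPM or 0 stands for depends on these settings, which were not tested. Of the 21 neighbours, 8 were found in the table by symbol, and 5 of those were above 0 in Empty NP. Those 5 were all more abundant than the muscle gene that they overlap, and 4 of them were also far lower in FuOXP NP.

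Tnnc2 is a minus-strand gene of chromosome 2 (164777161 to 164779967), and 592 of its 800 exon bases, 477 of them coding, are also exon of Ube2c. Ube2c, a ubiquitin-conjugating enzyme of mitosis on the plus strand, was at 12.5 TPM in FuOXP NP and 900 TPM in Empty NP, on 17 and 657 reads. It was 72.1-fold lower in FuOXP NP (44.7 to 125). Its Empty NP value was 67.4 times that of Tnnc2. The shared bases lie in 5 stretches between 164777190 and 164778227, and 32 of them are coding sequence of Ube2c.

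Atp2a1, a minus-strand gene of chromosome 7 (126445858 to 126463108), shares 763 exon bases, 517 of them coding for the pump, with Rabep2, which encodes an effector of Rab5. Rabep2 was at 1.79 TPM in FuOXP NP and 169 TPM in Empty NP, on 5 and 253 reads, or 94.5-fold lower (39.9 to 293). None of the shared bases is coding sequence of Rabep2. Ckm, a plus-strand gene of the same chromosome (19404776 to 19422841), shares 451 exon bases, 417 of them coding, with the antisense transcript A930016O22Rik. That transcript was at 0.745 TPM in FuOXP NP and 147 TPM in Empty NP, on 1 and 106 reads, or 198-fold lower (34.8 to 7889).

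Myh1, a plus-strand gene of chromosome 11 (67200052 to 67224575), shares 515 exon bases, 406 of them coding, with Myhas, a long non-coding RNA of the fast myosin cluster. Myhas was at 2.82 TPM in FuOXP NP and 61.5 TPM in Empty NP, on 3 and 35 reads, or 21.8-fold lower (6.87 to 111). Myl12a, a light chain of non-muscle myosin, shares 207 exon bases with Myom1, none coding, and was at 9.54 TPM in FuOXP NP and 26.7 TPM in Empty NP. It was 2.75-fold lower (1.42 to 5.42), which holds the typical gene. Mhrt and Gm15179, which overlap Myh7 and Des, and Apol6, which overlaps Mb, were listed at 0 in both libraries.

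**Figure D3:**
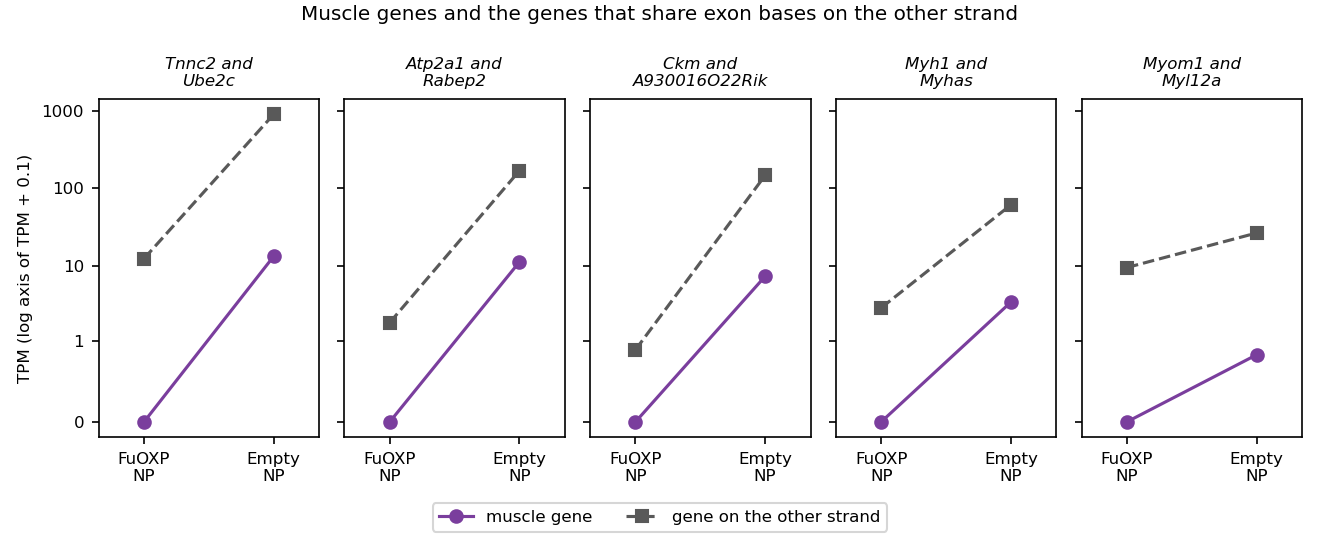
TPM in FuOXP NP and Empty NP, 1 library each, for 5 muscle genes (purple circles) and the gene whose exons they overlap on the other strand (grey squares), on a log axis of TPM + 0.1. In each panel the grey symbols lie above the purple ones, by 67.4 times in Empty NP for Ube2c over Tnnc2.

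The same feature runs through the table. Exons that overlap a gene on the other strand were annotated for 24.1% of the 23908 named genes with an annotation, for 56.8% of those with a mean of 10 TPM or more and for 80.3% of the 314 with a mean of 100 TPM or more. Among the members they were annotated for 16 of the 28 above 0 in Empty NP and for 1 of the 11 at 0 there, Cacna1s. The part of this in the members' values was not tested. Over the 22 members without any exon overlap, 7 had a value in Empty NP but a 0 in FuOXP NP, and the summed TPM had a log2 ratio of -2.85.

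Other genes of striated muscle are set beside the members, of which 9 of 39 were above 0 in FuOXP NP and 28 in Empty NP. Of 30 further sarcomere and Z-disc genes, 8 were above 0 in FuOXP NP and 10 in Empty NP. Among the 6 whose mean reached 1 TPM, 5 were at least 2-fold lower, against 69.7% of all 9489 such genes. Flnc, the muscle filamin, was at 0.609 TPM in FuOXP NP and 9.09 TPM in Empty NP on 3 and 24 reads. Hspb7, a small heat shock protein of striated muscle, was at 3.44 and 9.00 TPM in FuOXP NP and Empty NP, and Obsl1, a cytoskeletal linker, at 1.58 and 9.25 TPM. Cryab, the chaperone of desmin, was listed at 0 in FuOXP NP and at 6.01 TPM in Empty NP. The pooled reads of this list were 22 in FuOXP NP and 73 in Empty NP, or 6.19-fold lower (3.80 to 10.5). The other way round, Klhl41 and Mylk2 were at 1.51 and 1.29 TPM in FuOXP NP, on 2 reads each, and at 0 in Empty NP. Tcap, Ldb3, Myot and Csrp3, which are abundant in muscle, were listed at 0 in both libraries.

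Of 22 further genes of excitation and calcium, 6 were above 0 in FuOXP NP and 9 in Empty NP. All 4 whose mean reached 1 TPM were at least 2-fold lower, against 69.7% of all such genes. Chrnb1, a subunit of the acetylcholine receptor of the nerve contact, was at 1.51 TPM in FuOXP NP and 12.7 TPM in Empty NP on 2 and 9 reads. Asph, which gives rise to junctin of the calcium store and to proteins of many cells, was at 2.13 TPM in FuOXP NP and 6.19 TPM in Empty NP. Cacng1, a subunit of the voltage sensor, and Hrc, a calcium-binding protein of the store, were listed at 0 in FuOXP NP and at 2.85 and 2.78 TPM in Empty NP. The other way round, Chrng and Chrna1 were at 1.37 and 0.435 TPM in FuOXP NP, on 3 and 1 reads, and at 0 in Empty NP. The pooled reads of the list in FuOXP NP and Empty NP were 26 and 52, or 3.73-fold lower (2.29 to 6.23). Of 16 further energy genes found, 4 were above 0 in FuOXP NP and 8 in Empty NP. Over the 15 with recovered reads, which leaves out Aldoa, the pooled reads were 34 in FuOXP NP and 33 in Empty NP. That is 1.81-fold lower (1.09 to 3.02), an interval below the 3.19-fold of the typical gene. Slc25a4, an adenine nucleotide carrier, was at 21.9 and 31.8 TPM in FuOXP NP and Empty NP. Aldoa, the aldolase of muscle and many other cells, was at 9.64 TPM in FuOXP NP and 31.2 TPM in Empty NP, and Gys1, the glycogen synthase, at 2.39 and 5.21 TPM. Fabp3, a fatty acid carrier of muscle and heart, was listed at 0 in FuOXP NP and at 4.33 TPM in Empty NP. In this list 2 of the 5 whose mean reached 1 TPM were at least 2-fold lower and 1, Cox7a1, higher, against 69.7% and 2.35% of all such genes. Cox7a1 was at 3.57 TPM in FuOXP NP on 1 read and listed at 0 in Empty NP.

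Regulators that make muscle cells were mostly listed at 0 in both libraries. Of 11 myogenic regulators, 2 were above 0 in FuOXP NP and 3 in Empty NP, and Myod1, Myf5, Myf6 and Myog were listed at 0 in both. Cdh15 and Mef2c were listed at 0 in FuOXP NP and at 1.10 and 0.453 TPM in Empty NP, and Pax7, the satellite cell factor, was at 0.326 TPM in FuOXP NP and listed at 0 in Empty NP. Of 9 genes of atrophy and denervation, 8 were above 0 in FuOXP NP and 7 in Empty NP. Gadd45a, a stress gene that many cells use, led them at 7.57 TPM in FuOXP NP and 16.2 TPM in Empty NP. Runx1, Foxo3 and Fbxo30 came next, at 0.161, 0.756 and 0.367 TPM in FuOXP NP and 2.11, 1.41 and 1.37 TPM in Empty NP.

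Markers of other tissues that a tumour under the skin could carry are set beside the muscle genes in the plot of pooled reads. Of 13 cardiac genes, 1 was above 0 in FuOXP NP and 3 in Empty NP, with summed TPM of 4.62 and 44.0. Pln, phospholamban, which slow fibres also make, held most of it at 4.62 TPM in FuOXP NP and 31.6 TPM in Empty NP, while Myh6, Tnni3, Actc1 and Mybpc3 were listed at 0 in both. Nppa, the atrial peptide, and Tnnt2, the cardiac troponin T that immature muscle also makes, were listed at 0 in FuOXP NP and at 8.23 and 4.13 TPM in Empty NP. Of 11 smooth muscle genes, 5 were above 0 in FuOXP NP and 7 in Empty NP, with pooled reads of 55 and 98, or 3.33-fold lower (2.37 to 4.72). Their highest, Tagln, Cald1, Smtn and Mylk, were at 4.81, 6.34, 1.31 and 0.939 TPM in FuOXP NP and 31.4, 18.0, 4.07 and 2.80 TPM in Empty NP. Acta2 was at 1.07 TPM in FuOXP NP and 0 in Empty NP, and Myh11 and Actg2 were listed at 0 in both. Of 12 keratinocyte genes, 2 were above 0 in FuOXP NP and 1 in Empty NP, and Krt5, Krt14 and Krt1 were listed at 0 in both. Lgals7, a galectin of stratified epithelium, was at 2.06 TPM in FuOXP NP and 26.9 TPM in Empty NP, and Krt10 at 0.902 TPM in FuOXP NP and at 0 in Empty NP.

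Of 11 adipocyte genes, 6 were above 0 in FuOXP NP and 4 in Empty NP, with summed TPM of 12.1 and 75.0 and pooled reads of 23 and 121, or 9.82-fold lower (6.25 to 16.1). Lipe, a lipase, and Plin4, a lipid droplet protein, both also made in muscle, were at 1.30 and 2.31 TPM in FuOXP NP and 36.9 and 34.5 TPM in Empty NP, on 61 and 56 of those Empty NP reads. The median log2 difference of the list was 0.04, with 2 of the 6 whose mean reached 1 TPM at least 2-fold lower and 2, Retn and Cfd, at least 2-fold higher. Of all such genes, 69.7% were lower and 2.35% higher. Retn and Cfd were at 2.42 and 2.07 TPM in FuOXP NP and 0 in Empty NP. Fabp4 and Cd36 were at 2.97 and 1.06 TPM in FuOXP NP and 1.59 and 1.98 TPM in Empty NP, while Adipoq, Lep and Plin1 were listed at 0 in both libraries. Of 10 nerve genes, 4 were above 0 in FuOXP NP and 5 in Empty NP, with summed TPM of 4.82 and 21.4, and of 9 endothelial genes, 6 and 7, with summed TPM of 4.62 and 15.4. The highest of the nerve list, Cnp, S100b, Sox10 and Prx, were at 2.62, 0, 1.41 and 0.342 TPM in FuOXP NP and 12.7, 4.80, 1.31 and 1.28 TPM in Empty NP. The highest of the endothelial list, Cdh5, Pecam1, Eng and Tek, were at 1.36, 0.306, 0.943 and 0 TPM in FuOXP NP and 3.39, 3.43, 2.64 and 2.27 TPM in Empty NP. Of 7 erythroid genes found, 4 were above 0 in FuOXP NP and 1 in Empty NP, with summed TPM of 75.0 and 38.5. Hbb-bs, an adult beta globin, was at 57.1 TPM in FuOXP NP and listed at 0 in Empty NP. Alas2, the first enzyme of heme synthesis in red cells, was at 7.94 TPM in FuOXP NP and 38.5 TPM in Empty NP, and the alpha globins Hba-a1 and Hba-a2 at 7.05 and 2.86 TPM in FuOXP NP and 0 in Empty NP. Some genes named from the lists of other tissues also have exons that overlap other annotated genes. Among those above 0 in a library these are Pln, Nppa, Tagln, Smtn, Mylk, Krt10, Lipe, Plin4, Cnp, Prx, Eng and Alas2. The limit given for overlapping exons of the members holds for them too. The part of the lists of other tissues in the differences of the muscle genes was not tested.

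**Figure D4:**
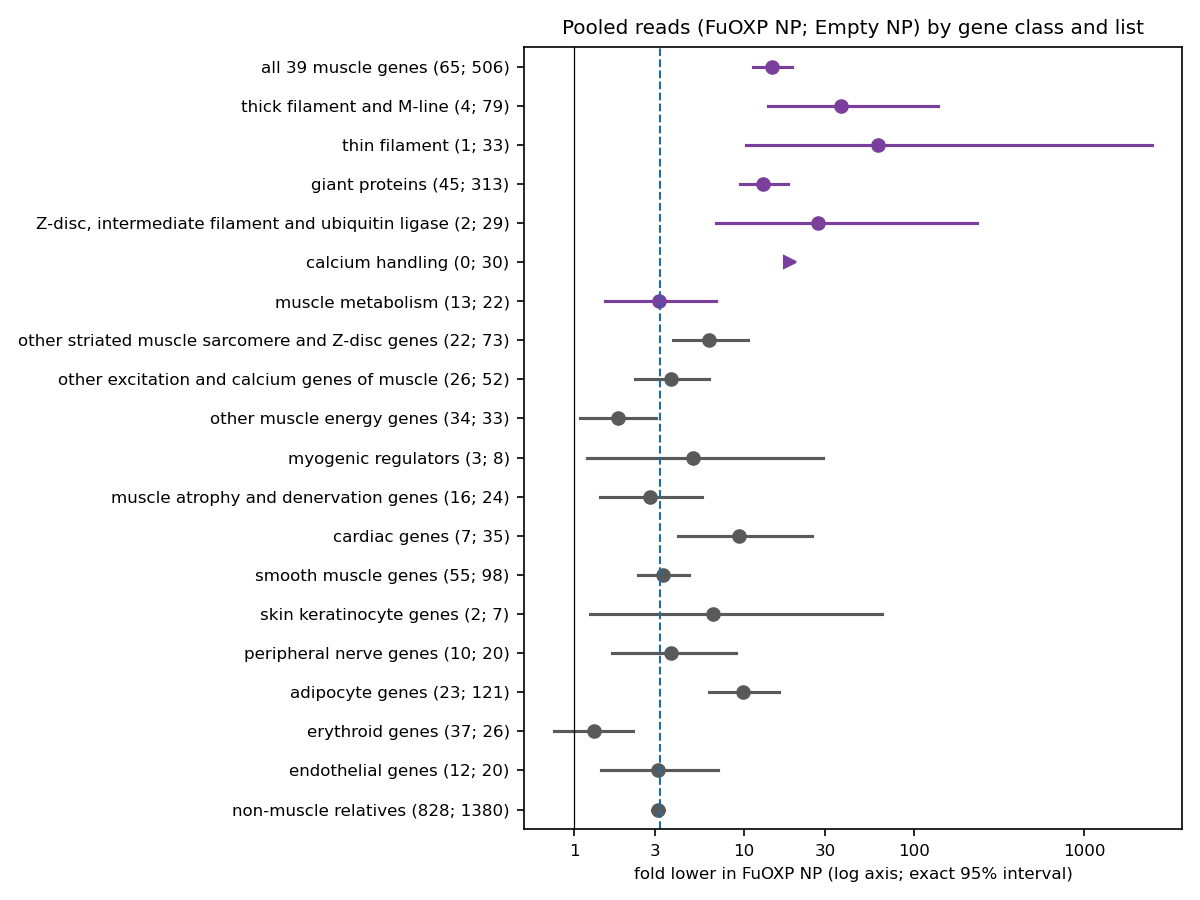
Fold by which pooled reads were lower in FuOXP NP than in Empty NP, on a log axis, for the muscle genes and their classes (purple) and for other gene lists (grey), with the reads of FuOXP NP and Empty NP in brackets. Lines are exact 95% intervals of counting error. The arrow sets the Empty NP reads, taken as exact, against a floor of 3 reads. The dashed line is the 3.19-fold of the typical gene, which lies below the intervals of all classes but muscle metabolism. The members were chosen on these values, so their place beside the line is not a test.

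Of the 26 relatives of the members listed as non-muscle, 21 were above 0 in each library, and their pooled reads lay near the typical gene. Over the 25 with recovered reads, which leaves out Myl12b, the pooled reads were 828 in FuOXP NP and 1380 in Empty NP, or 3.11-fold lower (2.85 to 3.40). Actb, Vim, Myl6 and Myh9 held the most of these reads in both libraries. Ryr2, listed at 0 in both, is also on the cardiac list. Myh9, the non-muscle myosin heavy chain, was at 10.8 TPM in FuOXP NP and 38.0 TPM in Empty NP, 3.53-fold lower, beside 85.9-fold for Myh4. Actb, the cytoplasmic actin, was at 94.0 TPM in FuOXP NP and 375 TPM in Empty NP, 3.99-fold lower, beside Acta1 at 0 in FuOXP NP. Vim, Myl6 and Tpm4, of the cytoskeleton, were at 68.8, 115 and 35.5 TPM in FuOXP NP and 241, 145 and 123 TPM in Empty NP, or 3.50-fold, 1.26-fold and 3.46-fold lower. Atp2a2, the calcium pump of slow fibres and most other cells, was at 7.22 TPM in FuOXP NP and 20.5 TPM in Empty NP, 2.84-fold lower. Ckb, the brain-type creatine kinase, was at 2.58 TPM in FuOXP NP and 7.23 TPM in Empty NP, 2.80-fold lower. Pgam1, the widespread mutase, was 3.73-fold lower beside 4.04-fold for Pgam2. Eno1, the widespread enolase, was at 6.38 TPM in FuOXP NP and 17.9 TPM in Empty NP, 2.80-fold lower, while Eno3 had the opposite sign. Some relatives lay further from the typical gene. Myh10, another non-muscle myosin heavy chain, was at 0.912 TPM in FuOXP NP and 7.83 TPM in Empty NP, on 5 and 23 reads, a log2 difference of -2.21. The tropomyosin genes Tpm1 and Tpm3, which have muscle and non-muscle isoforms, had 17 and 13 reads in FuOXP NP and 57 and 42 reads in Empty NP, with log2 differences of -2.43 and -2.33. Actn4, a non-muscle alpha-actinin, was 4.98-fold lower.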

How the data were processed

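The 2 tumour libraries, FuOXP NP and Empty NP, were read with paired ends of 75 bases, per the labels' protocols. STAR 2.6.1a, Cufflinks 2.2.1, Cuffdiff and GRCm38 stand in the submitters' processing notes, without their roles. Annotation, pooling of mice and use of strand in counting: not given in the sources used here. Values are TPM made by the authors, 1 column per group, which are relative, so that abundant rows lower all others. Of 53927 rows, 22240 without a symbol and 26 with a symbol turned into a date were left out of gene comparisons. Adjacent rows with the same pair of values were counted once, which removed 53, and of repeated symbols the highest row was kept. Exon lengths and overlaps came from GENCODE vM21 for 23908 genes, and promoters from RefSeq.

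A recovered read number is TPM multiplied by exon length and divided by the value of 1 read. Of genes under 10 reads, 80.8% in FuOXP NP and 80.9% in Empty NP came within 0.01 of a whole number. A recovered read may be a read pair. Members were called whole within 0.05 of a read, or a matching share of larger numbers. Genes were called apart at 2-fold on log2(TPM + 1) among those with a mean of 1 TPM or more, which understates low genes. With 1 library per group there was no test. Alternatives were other pseudocounts, scalings, filters and member subsets. Named besides the members were, of each list, up to 4 genes with the highest mean, genes whose exons overlap a member, and defining markers listed at 0. Those markers were chosen after their values were seen, as were Retn, Cfd, Klhl41, Mylk2, Chrng, Chrna1, Cox7a1, Acta2, Emcn, Kdr, Myh10, Tpm1, Tpm3, Ryr2, the epithelial markers and the pairs of non-muscle relatives. The values of 1 gene that this rule names are not reported here. The members and lists were chosen with earlier results of these data known. The steps were tested on simulated data. Versions were Python 3.11.15, numpy 2.4.6, pandas 2.3.3, scipy 1.17.1 and matplotlib 3.10.9.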

Additional observations from a re-analysis of the deposited data

Results flagged for a closer look

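Unnamed rows, which enter no comparison of the muscle genes, took up 71.3% of the TPM of FuOXP NP and 62.9% of that of Empty NP. This signal was higher in FuOXP NP than in the control library. Of the 21 annotated genes whose exons overlap a member on the other strand, 13 were not found by symbol.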

How the results depend on the processing

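No paired analysis was possible because each group has 1 library, and for the same reason no replicate could be left out. The median difference of the muscle genes, -2.34 as reported, was negative under every alternative run. Of the 24 members behind it, 16 are listed at 0 in FuOXP NP and passed through Empty NP alone. Other pseudocounts and rescalings could therefore not change the sign, which is no measure of stability. The median was -5.03 with a pseudocount of 0.1 TPM and -1.18 with 5 TPM, -0.90 centred on the median gene, and -2.81 and -3.16 with the 20 and 100 most abundant rows left out. It was -2.18 without a filter, -3.62 at a mean of 5 TPM or more, -2.58 without members that overlap another gene, -2.37 without the most abundant member and -3.13 on recovered reads. Chosen after seeing the data were -2.56 without Pgam2 and Eno3, -2.56 over members on whole reads and -2.81 over members with 3 or more Empty NP reads. The median of all genes moved with these settings, to -1.82 and -0.73 with the pseudocounts of 0.1 and 5 TPM and to -0.30 and -0.22 without the 20 and 100 rows.

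The log2 ratio of the summed TPM, -3.30 as reported, was -1.86 centred, -1.80 and -1.66 without the 20 and 100 rows, -2.90 at a mean of 5 TPM or more, -2.85 without overlapping members and -4.07 without the most abundant member, Pgam2. It was -5.69 without Pgam2 and Eno3 and -3.71 over members with 3 or more Empty NP reads. The 23 members at least 2-fold lower became 13 with a pseudocount of 5 TPM, 11 centred, 8 at a mean of 5 TPM or more, 11 without overlapping members and 4 of the 4 members with 20 or more reads, where 83.7% of all 3215 such genes were. The count of members 2-fold higher, 0 as reported, was 1 when centred and 1 without the 20 or the 100 rows. The 19 members listed at 0 in FuOXP NP alone became 4 at a mean of 5 TPM or more, 7 without overlapping members and 12 with 3 or more Empty NP reads. These counts fall because fewer members enter, except with the pseudocount of 5 TPM and the centring, where the threshold is harder to reach. As to depth, 10 of the 19 zeros stand against 3 or fewer reads in Empty NP.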

Other observations

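Antisense neighbours of other muscle genes, looked up after seeing the values of Ube2c and Rabep2, gave a mixed picture. Adora1, whose exons share 1162 bases with the myosin-binding protein gene Mybph, was at 0.330 TPM in FuOXP NP and 18.5 TPM in Empty NP, on 1 and 30 reads, while Mybph was listed at 0 in FuOXP NP and at 1.53 TPM in Empty NP. Habp2, which overlaps the Z-disc gene Nrap, was at 0.597 TPM in FuOXP NP and 10.0 TPM in Empty NP, on 1 and 9 reads. Fam131b, which overlaps the muscle chloride channel gene Clcn1, was listed at 0 in FuOXP NP and at 3.47 TPM in Empty NP on 4 reads. Clvs1, which shares 2302 exon bases with the widely expressed Asph, was at 97.1 TPM in FuOXP NP and 323 TPM in Empty NP, a log2 difference of -1.73 beside the median of -1.44. Neighbours of Myl2, Myl3 and Cox6a2, which are Ccdc63, Pth1r and Itgad, were listed at 0 in both libraries, as were those 3 muscle genes. Hspb2 and Sumf2 were at 0 in both libraries, although Cryab and Phkg1, which they overlap, were at 0 in FuOXP NP and at 6.01 and 0.547 TPM in Empty NP. Zcchc17 was at 1.26 TPM in FuOXP NP and 2.34 TPM in Empty NP, below the 4.33 TPM of Fabp3 in Empty NP. Ruvbl2, a neighbour of Gys1, and Senp1, a neighbour of Pfkm, had log2 differences of -1.30 and -1.69.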
